A study of Mus musculus with 14 samples.

Results

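The comparison described here sets 12-mo-old HSC of 3 genotypes against young HSC, with 6 arrays of 12 mo (2 each from WT, p53+/- and p53+/m mice) and 2 arrays of 2-mo-old WT mice, 8 of the 14 arrays in the series. All mice were male C57Bl/6. WT mice carry both normal p53 alleles, p53+/- mice carry 1 null allele, and p53+/m mice carry 1 truncated allele that raises the p53 response and ages the animals early. Every array was taken that the sample titles place at 12 mo or at 2 mo in HSC, so no measured value chose them, and the titles were used for age because a strain field repeats the same age for every sample. The changes sought were those that the genotypes share at 12 mo relative to young WT HSC. The p53 lines were crossed for several generations onto C57Bl/6 and no 2-mo-old p53 mice were analysed here, so genotype, line and age at 12 mo cannot be told apart for a change seen in only 1 of the p53 lines.

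HSC are the rare bone marrow cells that renew themselves and give rise to every blood lineage. They were sorted as side population cells, which pump out the dye Hoechst, and as c-Kit+, Sca-1+ and negative for lineage markers. With age, HSC in this mouse strain become more numerous, contribute less per cell after transplantation, and yield fewer lymphoid and more myeloid and platelet-biased progeny. The tumor suppressor p53 restrains the cell cycle and helps to keep HSC quiescent. An Affymetrix array reads each transcript with short probes near its 3' end, and the deposited values are log2 signals, on which a difference of 1 is 2-fold. Each HSC array holds RNA of 25000 to 50000 sorted cells pooled from several mice and amplified before hybridization. A difference in a bulk signal cannot tell fewer expressing cells from less RNA per cell.

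The 8 arrays had median signals between log2 3.93 and 4.10, with 42.7% to 43.6% of probe sets at log2 5 or above. Markers of other lineages were mostly at the floor of the array, which sets their medians. Among lists of 15 to 20 measured markers each, medians of the 12 mo minus 2 mo change were 0.00 for B lineage, -0.003 for T and NK, 0.01 for neutrophil, -0.002 for monocyte and macrophage, 0.01 for erythroid, and 0.01 for endothelial and stromal genes, and Cd79b was the only one of these markers called. The summed B lineage signal was log2 13.33 and 13.36 at 2 mo and 13.21 to 14.31 at 12 mo, and most of it was Cd24a, which HSC and other cells also express, at a mean of log2 13.24 and 13.73. The summed neutrophil signal was log2 11.07 and 10.51 at 2 mo and 9.86 to 11.30 at 12 mo. Some expressed markers differed without passing the test. S100a8 differed by -2.27 ± 0.92 (adjusted p = 0.34) and by -4.80 in p53+/-, S100a9 by -1.21 and -3.16, Ngp by -0.99 and -3.41, and Camp by -1.70 and -2.18. Mmp2 differed by -1.55 ± 0.31 (adjusted p = 0.073), Col4a1 by -1.29, Cd14 by 1.22, and the MHC class II genes H2-Aa and Cd74 by 1.35 and 1.37. Neither the monocyte nor the MHC class II genes moved in 1 direction. Cd68 and C1qb of the monocyte list differed by -1.14 and -1.02, and the MHC class II genes H2-Oa and H2-DMa by -1.56 and -0.70. Their part in the results was not tested. In HSC of both ages, 14 of 18 B lineage markers and 16 of 18 T and NK markers lay below log2 5. One technical measure did move with age. The 5' probe set of the 18S ribosomal RNA control read log2 10.91 and 10.88 on the 2 mo arrays, and log2 4.66 and 9.68 in WT, 8.92 and 7.96 in p53+/-, and 5.71 and 7.18 in p53+/m HSC at 12 mo. All 6 arrays of 12 mo were thus below both arrays of 2 mo, a mean difference of -3.54 (exact permutation test over 28 splits, 2-sided p = 0.0714, where the smallest possible is 0.0357). The middle 18S probe set differed by -3.12 but overlapped between the ages. It read log2 10.60 and 9.82 at 2 mo and 4.50 to 10.87 at 12 mo, highest on WT array B. The 3' probe set differed by only -0.30, at log2 8.87 and 7.70 at 2 mo and 6.31 to 8.73 at 12 mo. Array B of 12-mo-old WT HSC also had the largest 3' minus 5' difference of the Actb control, log2 6.27 against 2.73 to 4.65 on the other 7 arrays. The part of these measures in the changes below was not tested beyond the fits given with them.

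A gene was called when limma gave an adjusted p under 0.05 for the mean of the 3 genotypes against 2 mo and the change was at least 2-fold. Of 12393 genes, each read by its brightest probe set, 38 were called higher at 12 mo (0.307%) and 91 lower (0.734%). Of these, 28 rises and 53 falls were also at least 2-fold in the same direction in each genotype, and these are called shared below. The median shared rise was 2.14 and the median shared fall -1.57 on the log2 scale, whereas the median over all genes was 0.00. The 6 arrays of 12 mo did not overlap the 2 arrays of 2 mo for 36 of the 38 rises and 87 of the 91 falls. Among all genes, 4.66% lay entirely higher at 12 mo and 8.3% entirely lower. Before adjustment 233 genes were higher and 479 lower at p under 0.05 and 2-fold.

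The counts rested on few arrays. With the 18S signal as a covariate, 11 genes were called higher and 19 lower, of which 6 and 13 were among the 38 and 91. Without 2 mo array B the counts were 11 and 32, and without 12 mo WT array B they were 278 and 484. Every called gene that was tested kept its direction under each of the 22 alternatives. Calls required a 2-fold change and several alternatives alter only the test, so a kept direction was nearly fixed in advance. With the 18S covariate, however, 8 of the 12 largest shared rises and all 12 of the largest shared falls named below lost their call.

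**Figure D1:**
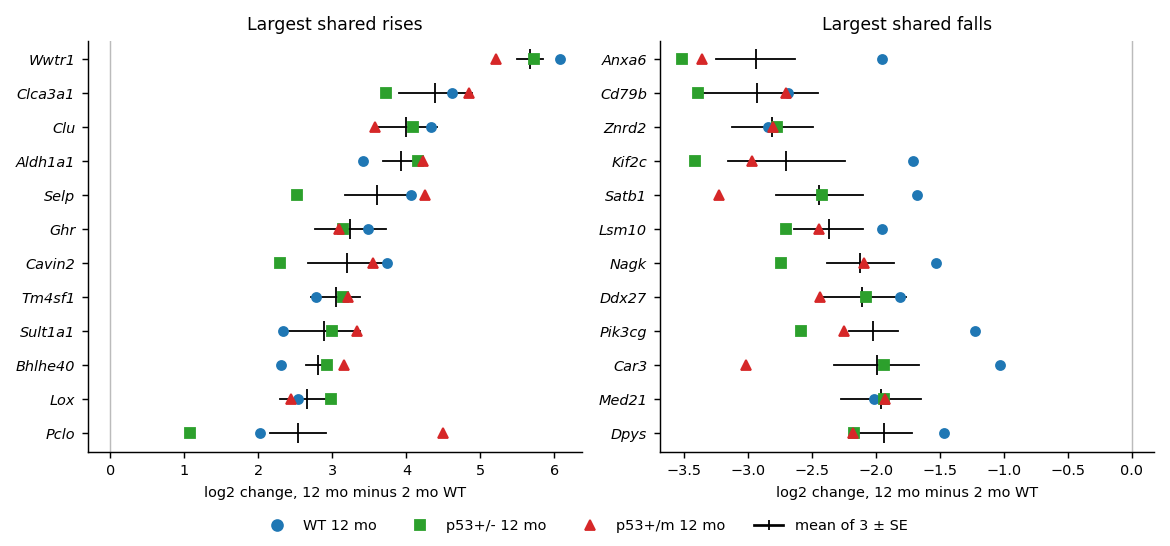
Log2 change from 2-mo-old WT HSC to 12 mo for the 12 largest shared rises (left) and 12 largest shared falls (right). Circles are WT, squares p53+/- and triangles p53+/m, each a mean of 2 arrays minus the mean of the same 2 arrays of 2 mo, and the bar is the mean of the 3 with its SE from limma. Wwtr1 leads the rises at 5.67 and Anxa6 the falls at -2.94, and among these falls the WT change is often the smallest of the 3.

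Among transcriptional regulators, Wwtr1 showed the largest rise of the comparison. It encodes TAZ, the coactivator that the Hippo pathway holds out of the nucleus. Wwtr1 (chromosome 3, 57455644 to 57575910, GRCm38.p6) read log2 3.71 and 4.25 at 2 mo, 10.08 and 10.02 in WT, 9.72 and 9.69 in p53+/-, and 9.23 and 9.13 in p53+/m HSC at 12 mo. The young level lay below log2 5 on both arrays and all 6 arrays of 12 mo lay above log2 9. The change was 5.67 ± 0.18 (SE), with an adjusted p of 8.0e-05, and its size rests on a young level where GC-RMA values approach background. The call held under all 22 alternatives, although the other 2 probe sets of Wwtr1, which did not pass log2 6.55 on any of the 8 arrays, changed by 0.53 and 0.78. Bhlhe40, a circadian and hypoxia-responsive repressor of the basic helix-loop-helix family, read log2 8.12 and 8.18 at 2 mo and 10.40 to 11.39 at 12 mo, a change of 2.80 ± 0.15 (adjusted p = 0.0015) called under all 22 alternatives. Hes1, the Notch-responsive repressor, rose by 2.22 ± 0.36 from log2 3.70 and 3.38, and Tfec, of the MiT family, by 1.56 ± 0.10. Tbl1x, a corepressor subunit, rose by 1.27 ± 0.17, and the zinc finger gene Zfp334 by 2.01 ± 0.33.

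At the cell surface, the shared rises included a platelet selectin, a caveolar protein and a chloride channel regulator. Clca3a1, a member of the calcium-activated chloride channel regulator family (chromosome 3, 144729677 to 144760977), read log2 6.25 and 4.85 at 2 mo and 8.98 to 10.73 at 12 mo. Its change was 4.39 ± 0.49 (adjusted p = 0.015). Selp encodes P-selectin, the receptor on platelets and endothelium on which leukocytes roll (chromosome 1, 164115264 to 164150026). It read log2 5.86 and 5.85 at 2 mo, 9.37 and 10.47 in WT, 7.89 and 8.86 in p53+/-, and 9.73 and 10.48 in p53+/m HSC. The arrays of p53+/- were the lowest at 12 mo, yet each was more than 2 units above both young arrays. The change was 3.61 ± 0.44 (adjusted p = 0.02), and a second probe set, at a mean of log2 3.42 at 2 mo and 9.62 at 12 mo, changed by 6.20 and was called too. Cavin2, a coat protein of caveolae that is abundant in platelets, rose by 3.19 ± 0.51 from log2 7.35 and 7.79 to between 9.06 and 11.75, with p53+/- again the smallest change at 2.29. The Cavin2 call held under 13 of 22 alternatives, and that of Selp under 17. Tm4sf1, a tetraspanin-like surface protein of endothelium, rose by 3.04 ± 0.33, and Gja1, the gap junction protein connexin 43, by 1.65 ± 0.24. Itga3, an integrin subunit for laminin, rose by 1.49 ± 0.15, and Plscr2, a phospholipid scramblase, by 2.10 ± 0.19. Plscr2 was the 1 shared rise that differed among the genotypes (F test adjusted p = 0.045), at means of log2 8.60 in WT, 7.07 in p53+/- and 6.79 in p53+/m.

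Aldh1a1, which oxidizes retinaldehyde to retinoic acid (chromosome 19, 20492583 to 20643463), read log2 8.26 and 8.57 at 2 mo, 12.32 and 11.34 in WT, 12.70 and 12.44 in p53+/-, and 12.54 and 12.74 in p53+/m HSC. WT array B was the lowest of the 6 and still lay above both young arrays. The change was 3.93 ± 0.25 (adjusted p = 0.0024), called under all 22 alternatives. Sult1a1, a phenol sulfotransferase, rose by 2.88 ± 0.49 from log2 6.87 and 6.88 to between 8.59 and 10.66, with an adjusted p of 0.049 and a call under 9 of 22 alternatives. Hk2, the hexokinase that traps glucose, rose by 1.63 ± 0.20, and Gpcpd1, a glycerophosphocholine phosphodiesterase, by 1.35 ± 0.22.

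Clu and App were both called on the mean of the genotypes. Clu encodes clusterin, an extracellular chaperone (chromosome 14, 65968483 to 65981548), and read log2 7.19 and 7.30 at 2 mo, 11.68 and 11.48 in WT, 11.36 and 11.30 in p53+/-, and 10.38 and 11.26 in p53+/m HSC. Its change was 3.996 ± 0.42 (adjusted p = 0.013), and its 3 other probe sets were called higher as well, by 3.18 to 3.99. App, the amyloid precursor protein, rose by 2.17 ± 0.35, from log2 7.88 and 7.92 to between 9.14 and 10.61. It did not pass in a single genotype (adjusted p = 0.16 in WT, 0.056 in p53+/- and 0.067 in p53+/m), and its call held under 9 of 22 alternatives. Its 3 other probe sets did not pass log2 2.40 on any of the 8 arrays. Psenen, a subunit of the gamma-secretase that cleaves App, fell by 1.24 on the log2 scale (SE 0.14, adjusted p = 0.014), from log2 11.54 and 11.47 to between 9.89 and 10.48. Ctsd, the lysosomal protease cathepsin D, rose by 1.05 ± 0.15 on the mean but not 2-fold in each genotype, with changes of 0.63 in WT, 1.81 in p53+/- and 0.71 in p53+/m.

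The remaining shared rises had varied roles. Ghr, the growth hormone receptor, rose by 3.24 ± 0.48 from log2 5.54 and 4.68 to between 7.84 and 9.35, a call that held under 10 of 22 alternatives. Dusp6, the phosphatase that turns off ERK, rose by 2.11 ± 0.31, from log2 8.24 and 8.09 to between 9.70 and 10.85. Lcp2, the adaptor SLP-76 of antigen receptor and platelet signaling, rose by 2.10 ± 0.12 (adjusted p = 0.002). Nfkbiz, a nuclear regulator of NF-kB, rose by 1.33 ± 0.22 from an already high log2 10.97 and 10.37. The call held under 12 of 22 alternatives for Dusp6 and under 9 for Nfkbiz. Lox, which cross-links collagen, rose by 2.65 ± 0.36, and Pclo, a scaffold protein of synapses, by 2.53 ± 0.38. The Pclo change spread most among the largest rises, at 1.07 in p53+/-, 2.02 in WT and 4.50 in p53+/m (F test adjusted p = 0.052). Its call held under 11 of 22 alternatives, and that of Lox under 14. The kinesin Kif1b rose by 2.00 ± 0.30, the LIM protein Fhl1 by 1.83 ± 0.29, and the endosomal protein Ehd3 by 1.60 ± 0.27. Other probe sets of Kif1b changed by -0.003 to 0.87, and that of Ehd3 by 0.61.

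The promoters of the leading genes are shown so that the start regions of the strongest shared changes can be compared. They are RefSeq sequences of GRCm38.p6 that run from 250 bases before to 50 bases after the start of transcription, for 3 of the 5 largest rises and 2 of the 12 largest falls, and for Wwtr1 the more upstream of 2 listed starts. Capitals mark the motifs searched, here the GC box GGGCGG and the ETS motif CCGGAAGT on either strand. The Wwtr1 promoter lies at chr3:57575861-57576160 on the minus strand, Clca3a1 at chr3:144760928-144761227 on the minus strand, and Selp at chr1:164115014-164115313 on the plus strand. Those of the falling genes are Znrd2 at chr19:5731683-5731982 on the minus strand and Lsm10 at chr4:126096403-126096702 on the plus strand.
Wwtr1: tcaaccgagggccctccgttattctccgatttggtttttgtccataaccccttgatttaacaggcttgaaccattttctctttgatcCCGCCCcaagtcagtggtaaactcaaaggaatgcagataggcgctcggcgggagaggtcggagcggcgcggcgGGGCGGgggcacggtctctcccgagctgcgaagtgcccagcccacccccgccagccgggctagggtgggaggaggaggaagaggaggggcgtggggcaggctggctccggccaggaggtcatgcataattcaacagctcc
Clca3a1: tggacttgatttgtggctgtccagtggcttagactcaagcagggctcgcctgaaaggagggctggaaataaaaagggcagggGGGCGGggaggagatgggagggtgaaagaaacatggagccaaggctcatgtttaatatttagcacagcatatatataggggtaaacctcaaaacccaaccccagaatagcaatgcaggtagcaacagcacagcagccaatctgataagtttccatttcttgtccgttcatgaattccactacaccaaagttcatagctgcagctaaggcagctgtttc
Selp: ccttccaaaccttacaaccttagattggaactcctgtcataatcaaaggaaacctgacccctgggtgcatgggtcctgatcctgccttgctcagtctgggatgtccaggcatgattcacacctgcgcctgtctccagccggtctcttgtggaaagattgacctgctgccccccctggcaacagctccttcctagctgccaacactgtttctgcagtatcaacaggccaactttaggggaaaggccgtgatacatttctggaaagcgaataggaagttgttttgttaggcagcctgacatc
Znrd2: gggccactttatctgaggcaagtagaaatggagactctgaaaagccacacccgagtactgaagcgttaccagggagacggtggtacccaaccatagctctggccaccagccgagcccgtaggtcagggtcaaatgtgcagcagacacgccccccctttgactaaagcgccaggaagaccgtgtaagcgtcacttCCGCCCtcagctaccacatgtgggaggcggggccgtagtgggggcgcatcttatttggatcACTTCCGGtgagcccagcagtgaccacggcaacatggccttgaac
Lsm10: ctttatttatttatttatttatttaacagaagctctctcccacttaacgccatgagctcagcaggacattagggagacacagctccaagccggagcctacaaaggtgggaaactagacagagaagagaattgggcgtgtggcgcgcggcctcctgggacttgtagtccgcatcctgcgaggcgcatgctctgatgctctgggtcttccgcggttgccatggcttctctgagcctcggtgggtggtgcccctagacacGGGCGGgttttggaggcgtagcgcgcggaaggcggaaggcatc

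Wwtr1 holds 2 GC boxes and Clca3a1 holds 1, while the Selp window holds none of the motifs searched. A promoter was found for 9887 of the 12393 array genes, 21 of the 28 shared rises and 40 of the 53 shared falls, taking the most upstream entry of a gene. The GC box stood in 10 of 21 rises and 24 of 40 falls, and in 57.5% of all promoters. The ETS motif stood in none of the 21 rises, in 8 of the 40 falls (Dmap1, Pbdc1, Fkbp2, Mrpl43, Trmt10b, Ddx27, Nagk and Znrd2), and in 6.71% of all promoters. The AP-1 motif TGAGTCA stood in 2 of 21 rises (Aldh1a1 and Gja1), 1 of 40 falls and 4.46% of all, and the TATA motif TATAAA in 1, 4 and 10.1%, where 1 of the 4 is Kif2c, whose listed window lies inside the annotated gene. The E-box CACGTG stood in none of the rises, 2 of the falls and 9.35% of all, and the CRE motif TGACGTCA in none, 1 and 2.74%. Neither NF-kB motif, GGGACTTTC or GGGAATTTC, occurred in a promoter of the shared genes, against 0.384% and 0.253% of all. These matches describe letters in these windows only.

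**Figure D2:**
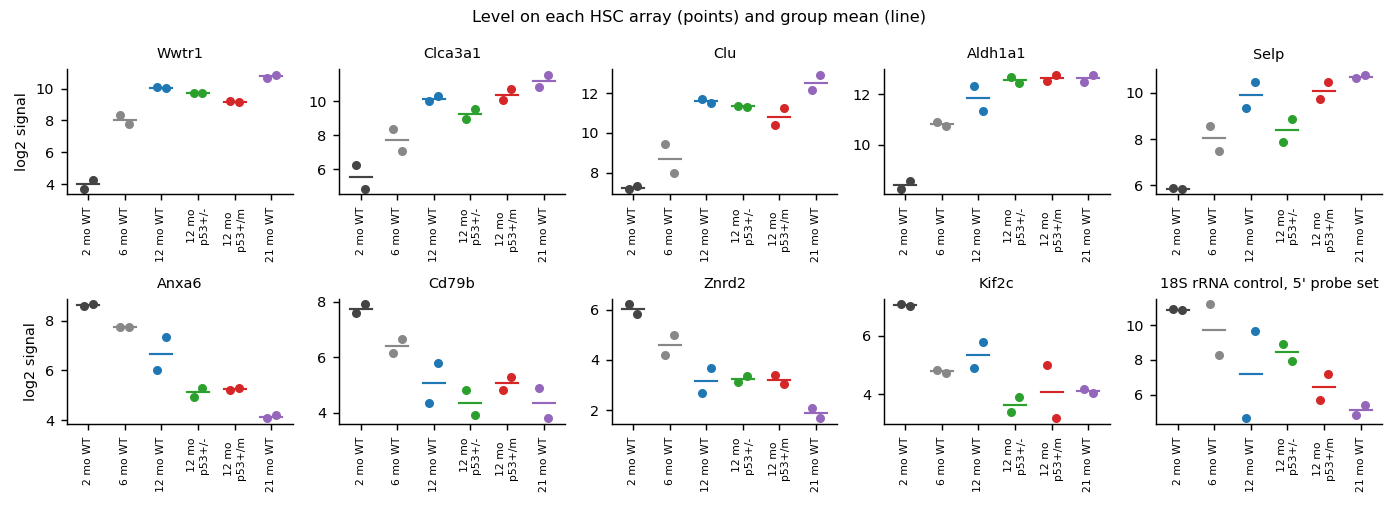
Log2 signal on each HSC array (points) with the group mean (line) for the 5 largest shared rises, the 4 largest shared falls, and the 5' probe set of the 18S ribosomal RNA control. Each panel has its own axis. In every gene panel the 6 arrays of 12 mo lie on 1 side of both arrays of 2 mo, and the 18S 5' probe set is lower on all 6 as well, with WT array B nearest to the young level.

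Cd79b, a signaling chain of the B cell receptor, read log2 7.60 and 7.91 at 2 mo, 4.35 and 5.79 in WT, 4.81 and 3.90 in p53+/-, and 4.81 and 5.30 in p53+/m HSC. All 6 were below both young arrays. The change was -2.93 ± 0.48 (adjusted p = 0.043), and the call held under 9 of 22 alternatives. None of the other 17 B lineage markers measured was called. Satb1, a chromatin organizer needed for lymphoid programs, fell by 2.44 on the log2 scale (SE 0.34, adjusted p = 0.027), from log2 9.64 and 10.34 to between 6.66 and 8.72. The fall was 1.68 in WT, 2.42 in p53+/- and 3.23 in p53+/m (F test adjusted p = 0.30). Other Satb1 probe sets changed by -0.79 and -0.18, and the call held under 12 of 22 alternatives. Pik3cg, the leukocyte phosphoinositide 3-kinase gamma, fell by 2.02 (SE 0.19), and Irf8, a factor for monocytes, dendritic cells and B cells, by 1.51 (SE 0.15), from log2 5.18 and 5.57 to between 3.62 and 3.95. Irf8 was thus below log2 5 on all 6 arrays of 12 mo. The other probe set of Pik3cg changed by -0.24, and that of Irf8 by -0.66.

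Anxa6, a calcium-dependent membrane-binding annexin (chromosome 11, 54978953 to 55033471), had the largest shared fall. It read log2 8.59 and 8.66 at 2 mo, 6.01 and 7.34 in WT, 4.92 and 5.30 in p53+/-, and 5.22 and 5.31 in p53+/m HSC, a change of -2.94 ± 0.31 (adjusted p = 0.013). WT array B was the highest of the 6. A second Anxa6 probe set changed by -3.06 and was called too, and the remaining one changed by -0.32. Such agreement was rare. Of 58 called genes with several probe sets, 4 had another called the same way and 15 had another of opposite sign. Of the 97 other probe sets of called genes, however, 52 were below log2 5 on all 8 arrays, where GC-RMA values approach background. The opposite signs include changes near 0, such as 0.0008 for Vps9d1, as well as 0.20 for Fstl1. The other probe sets of Tm4sf1, Lox and Pclo were below log2 5 on all 8 arrays and changed by 0.24 at most, and those of Ghr changed by 0.67 and -0.004. The SNARE genes Vamp8 and Vamp5 fell by 1.14 (SE 0.14) and 1.33 (SE 0.15), the adaptor subunit Ap1g2 by 1.70 (SE 0.25), and the ESCRT-III subunit Chmp6 by 1.96 (SE 0.08), the last at below log2 5 on all 8 arrays.

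Lsm10, which processes the ends of histone transcripts as part of the U7 particle, read log2 6.17 and 6.23 at 2 mo and 3.37 to 4.64 at 12 mo, a change of -2.37 ± 0.27 (adjusted p = 0.017). The helicase Ddx27 fell by 2.11 (SE 0.35, called under 9 of 22 alternatives), the Mediator subunit Med21 by 1.96 (SE 0.31), and the ribosomal RNA processing factor Rrp36 by 1.26 (SE 0.07, adjusted p = 0.0013). Znrd2, a small zinc-ribbon protein (chromosome 19, 5730306 to 5731732), read log2 6.21 and 5.84 at 2 mo, 2.68 and 3.67 in WT, 3.12 and 3.38 in p53+/-, and 3.39 and 3.04 in p53+/m HSC. The genotypes were nearly equal, with changes of -2.85, -2.78 and -2.81. Kif2c, a kinesin that depolymerizes microtubules at centromeres, fell by 2.70 (SE 0.46, adjusted p = 0.048), from log2 7.07 and 7.02 to between 3.17 and 5.77. Its 3 other probe sets did not pass log2 4.30, so Kif2c rests on 1 probe set. The Kif2c call held under 10 of 22 alternatives, and that of Med21 under 12. Among metabolic genes, Nagk, the kinase of N-acetylglucosamine, fell by 2.12 (SE 0.26), Car3, a carbonic anhydrase, by 1.99 (SE 0.33), and Dpys, of pyrimidine breakdown, by 1.94 (SE 0.23). Their calls held under 15, 10 and 16 of 22 alternatives.

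Mitochondrial ribosomal proteins, which build the particle that translates the mitochondrial genome, were the list with most called falls. Of 72 measured, 6 were called lower and none higher (background 0.734% and 0.307%), 4 of them shared, and 67 had a negative change with a median of -0.75. Their arrays were entirely lower at 12 mo for 40 of 72 members, against 8.3% of all genes. Mrpl44 read log2 9.80 and 9.80 at 2 mo, 8.37 and 8.59 in WT, 7.92 and 7.69 in p53+/-, and 7.65 and 7.88 in p53+/m HSC, a change of -1.79 ± 0.13 (adjusted p = 0.0037). Mrpl43 read log2 7.66 and 7.69 at 2 mo and 6.01 to 6.14 at 12 mo, a change of -1.57 ± 0.11 that stayed called under all 22 alternatives. Mrps28 fell by 1.62 (SE 0.19) and Mrpl22 by 1.70 (SE 0.28). The calls held under 20 alternatives for Mrpl44, 17 for Mrps28 and 9 for Mrpl22, and all 3 were lost with the 18S covariate. Mrpl18 and Mrps25 were called on the mean only, with WT changes of -0.97 and -0.79. The list median was -0.55 in WT, -0.71 in p53+/- and -0.86 in p53+/m, contrasts that share the 2 mo arrays, and was -0.64 with the 18S covariate.

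Oxidative phosphorylation genes gave a lower median and 1 call, against a background of 0.734% lower and 0.307% higher. Of 71 measured, 63 were negative with a median of -0.69, and only Ndufa5, a complex I subunit, was called, under 6 of 22 alternatives. It differed among the genotypes (F test adjusted p = 0.045), at changes of -0.06 in WT, -1.68 in p53+/- and -1.38 in p53+/m. With the 18S covariate the median of the list was -0.34. Among 38 proteasome subunits, Psmb6 fell by 1.27 (SE 0.13) and Psma7 by 1.06 (SE 0.12), and the median was -0.19. Psmd3 was called too, but lay below log2 4 on all 8 arrays, so the size of its change is not given. None of 34 subunits of the RNA exosome, RNA polymerases and RNase H was called, with a median of -0.67.

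Cell cycle and mitosis genes had the next pattern without a call. Of 47 measured, none passed, 43 were negative and the median was -0.49, or -0.75 with the 18S covariate. The list does not include the kinesin gene Kif2c, which was called lower. Mki67, the proliferation antigen, was at mean log2 10.58 at 2 mo and 9.57 at 12 mo, a difference of -1.02 ± 0.26 with an adjusted p of 0.13. Cdk1, which drives mitotic entry, differed by -1.06 ± 0.31 (adjusted p = 0.18). The median was -0.27 in WT, -0.49 in p53+/- and -0.62 in p53+/m. CDK inhibitors and G1 cyclins, 18 measured, had a median of 0.00 and no call. None of the lists of DNA repair (63 measured), chromatin remodeling (48), or histone deacetylases and sirtuins (22) held a called gene. Over all genes 0.307% were called higher and 0.734% lower, so the lack of a call does not set lists of these sizes apart.

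Immediate early genes, which cells switch on within minutes of a stimulus, moved the other way. Of 34 measured, 3 were called higher and none lower (background 0.307% and 0.734%), 30 were positive, and the median was 0.67, or 0.87 with the 18S covariate. The arrays lay entirely higher for 15 of the 34, against 4.66% of all genes. Fos read log2 12.41 and 12.26 at 2 mo, 12.94 and 13.23 in WT, 13.60 and 14.09 in p53+/-, and 13.67 and 13.66 in p53+/m HSC, a change of 1.199 ± 0.14 (adjusted p = 0.017). WT was the lowest of the 3 and did not reach 2-fold. Egr1 rose by 1.31 ± 0.17 and differed among genotypes (F test adjusted p = 0.049), at 0.48 in WT, 1.28 in p53+/- and 2.17 in p53+/m. Fosb had a larger difference, 3.32 ± 0.69, that did not pass (adjusted p = 0.077), as did Atf3 at 2.501 ± 0.48 (adjusted p = 0.065). Of 38 cytosolic chaperones none was called, 30 were positive and the median was 0.35, which became -0.03 with the 18S covariate. Of 32 endoplasmic reticulum chaperones and stress genes, Calr, the calreticulin gene, rose by 1.11 ± 0.15 and the prolyl isomerase gene Fkbp2 fell by 1.51 (SE 0.25), calls that held under 13 and 8 of 22 alternatives.

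**Figure D3:**
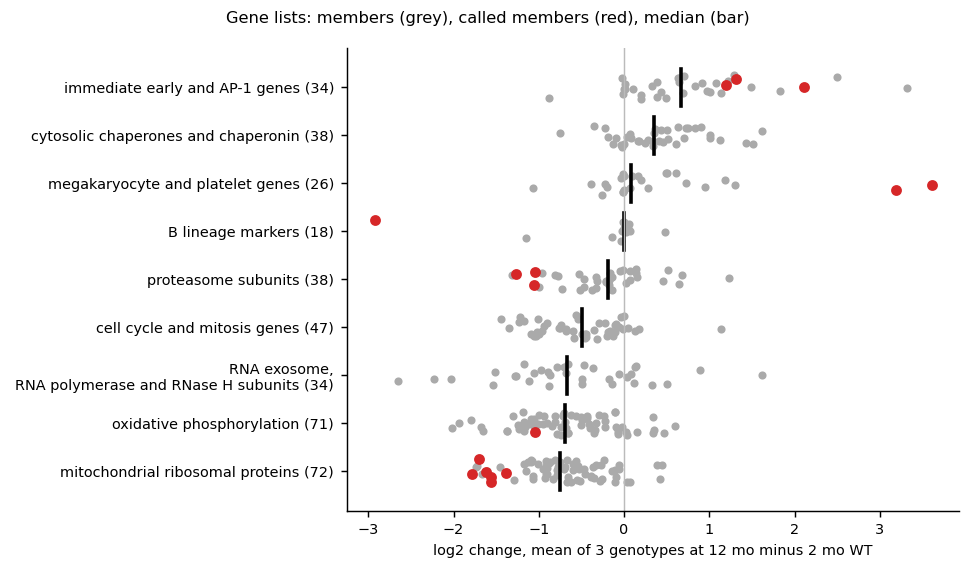
Log2 change, mean of the 3 genotypes at 12 mo minus 2 mo WT, for the measured members of 9 gene lists, with the number measured in brackets. Red points are members called by limma at an adjusted p under 0.05 and 2-fold, and the bar is the median. The median lies at 0.67 for immediate early genes and at -0.75 for mitochondrial ribosomal proteins, and at 0.08 for the platelet list, in which Selp and Cavin2 are the red points.

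HSC markers served as a check of identity. Of 44 measured, Sult1a1 and Egr1 were called higher (background 0.307%) and Cxcr4 lower (background 0.734%), and the median was 0.21. Kit, the stem cell factor receptor used in the sort, was at mean log2 8.29 at 2 mo and 8.94 at 12 mo. Slamf1, a surface marker of HSC that varies with age, differed by 1.67 ± 0.50 (adjusted p = 0.19), and Flt3, the receptor of multipotent and lymphoid progenitors, by -1.53 ± 0.56 (adjusted p = 0.28). Gfi1, a repressor that keeps HSC quiescent, differed by -2.09 ± 0.38 and did not pass (adjusted p = 0.058). Of 26 platelet and megakaryocyte genes, only Selp and Cavin2 were called, both higher (background 0.307%), and the median was 0.08. Vwf differed by 1.30 ± 0.66 (adjusted p = 0.47). Of the genes that the study named as rising with age, a list of 24 without the immunoglobulin genes was measured. Each was positive with a median of 0.48, and 3 were called (Selp, Clu and App), while 17 of 18 that it named as falling were negative with a median of -0.75 and none was called. The authors drew both lists from the WT HSC time course, which includes the 2 mo and WT 12 mo arrays used here. The lists therefore give no independent evidence of direction. The p53 arrays did not enter that time course, but are set here against the same 2 mo arrays. The paper also reports real-time PCR of a subset of genes in separately sorted HSC, and P-selectin protein by flow cytometry.

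Each genotype was also set against young WT HSC by itself. WT HSC at 12 mo had 14 genes called higher (0.113%) and 28 lower (0.226%), p53+/- HSC 31 (0.25%) and 95 (0.767%), and p53+/m HSC 77 (0.621%) and 117 (0.944%). These contrasts share the 2 arrays of 2 mo. Only 8 rises and 14 falls were called in each of them. The median change of the 28 shared rises was 2.06 in WT, 1.98 in p53+/- and 2.43 in p53+/m, and that of the 53 shared falls -1.38, -1.64 and -1.65. WT had the smallest of the 3 changes in 34 of the 53 falls, and in 7 of the 28 rises. The WT means rest on 2 arrays, of which array B had the largest Actb 3' minus 5' difference, log2 6.27. When WT array B was left out, the WT count exceeded both p53 counts, so the order of the genotypes is not stable. The part of this array in the differences between the genotypes was not tested.

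The levels of the genotypes at 12 mo were then compared with each other by an F test whose contrasts leave out the young arrays, although these enter its estimate of the spread. Without either 2 mo array it called 36 genes. It called 102 of all genes (0.823%), and 1531 had an unadjusted p under 0.05. It called 6 of the 38 rises and 7 of the 91 falls, and of the shared genes only Plscr2. Shared genes had to change at least 2-fold the same way in each genotype, so few differences among them follow in part from that choice. Among 28 shared rises 9 had an unadjusted p under 0.05, and among 53 shared falls 15. A p that misses the threshold does not show equal levels.

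Genes called on the mean but carried by the p53 lines stood out at this test. Ctse, the aspartic protease cathepsin E, read log2 11.02 and 11.08 at 2 mo, 11.04 and 11.05 in WT, 6.55 and 5.80 in p53+/-, and 10.41 and 10.48 in p53+/m HSC (F test adjusted p = 0.002). Its fall was thus that of p53+/- HSC, at -4.88. Cxcr4, the receptor of the niche chemokine CXCL12, read log2 9.36 and 9.45 at 2 mo, 9.67 and 9.48 in WT, 7.02 and 7.45 in p53+/-, and 5.73 and 5.97 in p53+/m HSC (F test adjusted p = 0.008). Both p53 lines were below WT and p53+/m was the lowest. Sdc1, the heparan sulfate proteoglycan syndecan 1, fell by 0.49 in WT, 0.95 in p53+/- and 2.69 in p53+/m (F test adjusted p = 0.015). Plk3, a stress-responsive kinase and p53 target, changed by 0.19 in WT, 2.43 in p53+/- and 1.99 in p53+/m (F test adjusted p = 0.017). Cxcl1, a neutrophil chemokine, read log2 2.91 and 3.20 in WT, 6.85 and 6.32 in p53+/-, and 4.52 and 5.55 in p53+/m, against 3.10 and 3.08 at 2 mo. Tmem80, a transmembrane protein gene, went the other way, falling by 2.07 in WT, 0.98 in p53+/- and 0.84 in p53+/m (F test adjusted p = 0.017). WT levels of Ctse, Cxcr4, Plk3 and Cxcl1 at 12 mo differed from 2 mo by at most 0.19.

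**Figure D4:**
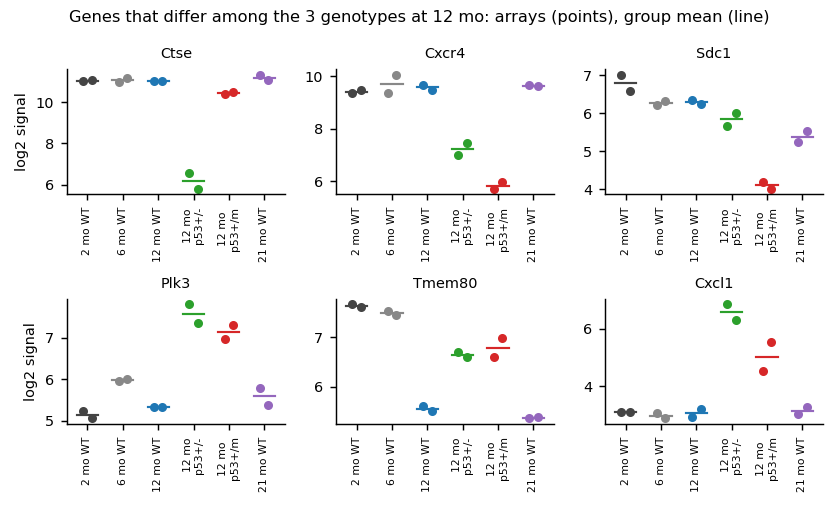
Log2 signal on each HSC array (points) and group mean (line) for the 6 called genes with the smallest adjusted p of the genotype F test at 12 mo. Each panel has its own axis. Ctse is low in p53+/- only, Cxcr4 is low and Plk3 and Cxcl1 are high in both p53 lines, Sdc1 is lowest in p53+/m, and Tmem80 is lowest in WT among the 12 mo groups.

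The WT arrays of 6 and 21 mo give a second view of age that shares no array with the 12 against 2 mo contrast. These arrays still entered the choice of the shared genes, through the estimate of the spread and the brightest probe set. Calls in both contrasts are therefore not independent. With only the 8 arrays of 2 and 12 mo, 10 rises and 22 falls were shared. Over all genes 113 were called higher (0.912%) and 153 lower (1.23%) at 21 mo against 6 mo. Of the 28 shared rises, 14 were called higher, none was called lower, and all 28 had a positive change with a median of 2.25. Of the 53 shared falls, 21 were called lower, none higher, and none had a positive change, with a median of -1.06. Over all genes, 4206 changes were positive and the median was -0.01. The 18S 5' signal moved alike here, from log2 11.19 and 8.28 at 6 mo to 4.84 and 5.44 at 21 mo, and with it as a covariate 2 shared rises and 1 shared fall were called in both contrasts. Wwtr1 read log2 8.32 and 7.74 at 6 mo and 10.69 and 10.85 at 21 mo (adjusted p = 0.0044), and Anxa6 7.74 and 7.74 at 6 mo and 4.08 and 4.205 at 21 mo (adjusted p = 0.011).

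The 6 mo mean lay between the 2 mo mean and the 12 mo mean for 25 of the 28 shared rises and 49 of the 53 shared falls. The genes were chosen for a gap between those same means, so another group tends to lie between them. The share over all genes was not computed, and the counts do not show a graded course. The median level of the shared rises was log2 6.39 at 2 mo, 8.03 at 6 mo, 9.27 at 12 mo over the 3 genotypes, and 10.62 at 21 mo. That of the shared falls was log2 7.30, 6.66, 5.30 and 5.05. At 21 mo, 25 rises stood above the WT 12 mo mean and 42 falls below it. Levels at 2 mo set the scale of these changes. On both young arrays 5 of the 28 rises were below log2 5, and on all 12 mo arrays 21 of the 53 falls were below it, where GC-RMA values approach background.

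**Figure D5:**
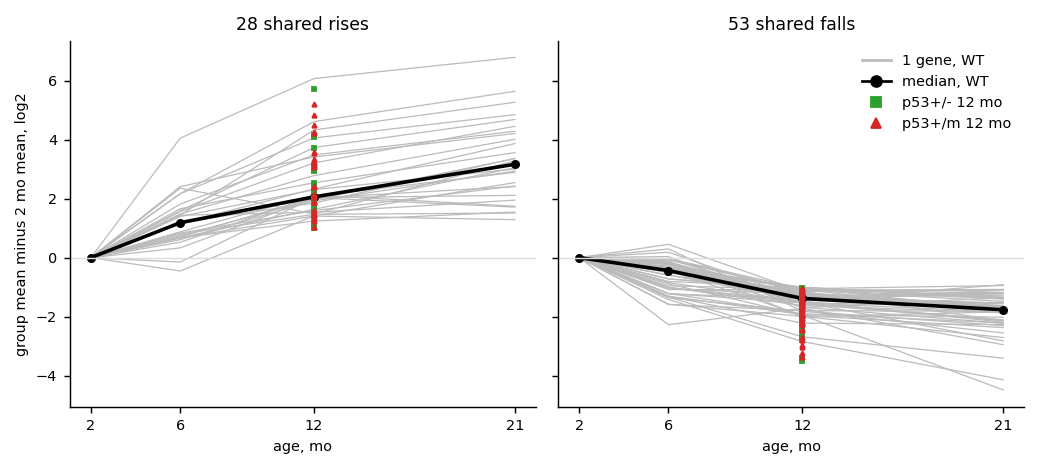
Group mean minus the 2 mo mean (log2) at 2, 6, 12 and 21 mo for the 28 shared rises (left) and 53 shared falls (right). Grey lines are single genes in WT HSC, the black line their median, and squares and triangles the p53+/- and p53+/m means at 12 mo. The genes were chosen at 12 mo against 2 mo, so those points differ by construction. The 6 and 21 mo arrays entered the choice only through the estimate of the spread and the brightest probe set.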

How the data were processed

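RNA of sorted HSC was linearly amplified and hybridized to Affymetrix MOE430A arrays. The deposited values are log2 signals that the authors obtained by GC-RMA, whose version is not given in the sources used here. Several mice were pooled for each array, so p-values measure the spread between such pools and arrays.

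All 12 HSC arrays (6 groups of 2) were fitted in limma 3.58.1 under R 4.3.3 with group means, and the contrast was the mean of the 3 genotypes at 12 mo minus 2 mo. Adjustment was Benjamini-Hochberg over 22626 probe sets. Controls (64 probe sets) were left out of the tests, as were the arrays of whole bone marrow. Symbols came from the platform annotation: 20380 probe sets had 1 symbol, 691 several and 1555 none. A gene took its brightest probe set. Named genes were the 12 largest shared rises and falls with no overlap of arrays and a level of log2 5 or above, up to 4 called members a list in each direction, and the 6 strongest genotype differences. Other genes, named as shared or as list members that missed the threshold, were picked after their values were seen. The comparison, gene lists and tests were chosen with earlier results of these data known. The fit was tested on simulated data. The transcript of the targeted gene was not analysed here. Letters A and B were not treated as pairs, since the sample titles do not say what they stand for. Over 15 pairs of groups, correlations of A minus B ran from -0.31 to 0.16, which does not exclude a pairing.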

Additional observations from a re-analysis of the deposited data

Results flagged for a closer look

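Among the 24 genes with the largest shared changes, 2 had an array of 12 mo that lay apart from the other 5, where chance marks about 1 in 20 groups. Clu read log2 10.38 on p53+/m array A, and Aldh1a1 read log2 11.34 on WT array B.

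The F test called a difference among the genotypes at 12 mo for 13 of the 129 called genes. Adjusted p-values were 0.0025 for Ctse, 0.008 for Cxcr4, 0.0149 for Sdc1, 0.0167 for Plk3, 0.0174 for Tmem80 and 0.021 for Cxcl1. They were 0.0325 for Lpl, at log2 10.54 in WT, 8.33 in p53+/- and 9.65 in p53+/m, and 0.0387 for Npl, at 10.21, 7.81 and 8.08. Purb had 0.0392, with p53+/m highest at log2 10.76, Plscr2 0.0451 and Ndufa5 0.0451. Il18r1 had 0.046, at log2 5.34 in WT, 2.29 in p53+/- and 2.67 in p53+/m, and Egr1 0.0487.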

How the results depend on the processing

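The direction of every called gene held in every setting that tested it, which the 2-fold threshold made nearly certain, but the counts did not hold. Counts are given in the order genes higher, genes lower, shared rises, shared falls, genes called in WT, in p53+/- and in p53+/m alone, genotype differences, and shared rises and falls called again from 6 to 21 mo; the reported ones are 38, 91, 28, 53, 42, 126, 194, 102, 14 and 21. Only values beyond 1.5 times these are printed. With the 18S covariate they were 11, 19, 9, 13, 15, 38, 95, 367, 2 and 1. With the array letter as a replicate block, although letters are not known to pair arrays, they were 19, 56, 15, 31, 24, 51, 117, 32, 7 and 9. With only the 8 arrays of 2 and 12 mo they were 13, 30, 10, 22, 23, 34, 49 and 14, and with genotype ignored the first pair was 13 and 36. Without both WT arrays of 12 mo they were 180, 408, 136, 275, then 589 and 435 in the p53 lines, 179, 71 and 118. Without both p53+/- arrays they were 21, 42, 17 and 30, with 21 in WT and 8 rises again from 6 to 21 mo. Without both p53+/m arrays they were 11, 28, 10 and 20, with 24 in WT, 51 in p53+/-, 13 genotype differences, 7 and 5. Filtering at log2 5 gave 108, 242, 66, 126, then 317 and 347 in the p53 lines, 67, 39 and 58. Unadjusted p gave 233, 479, 116, 179, 559, 987, 905, 1531, 76 and 114. The trend and robust options gave 22 in WT and 28 genotype differences, quantile normalization 82 in p53+/-, and dropping the fold threshold 146 lower. Leaving out 1 of the 8 arrays gave 11 to 278, 32 to 484, 9 to 135, 25 to 231, 21 to 1030, 51 to 589, 70 to 435, 36 to 953, 5 to 75 and 6 to 118, with the upper ends mostly without 12 mo WT array B (genotype differences without WT array A) and the lower ends mostly without 2 mo array B. The cause was not tested. The median of the cytosolic chaperones turned from 0.35 to -0.0336 with the 18S covariate. Of the 12 largest rises 3 were called in all 22 settings, and of the 12 largest falls none. The number of arrays, 2 a group, limits the precision of every value here.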
